A study of Mus musculus with 3 samples.

Results

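The 9 genes described here mark arterial and venous identity in blood vessels: the SoxF transcription factors Sox17, Sox18 and Sox7, the connexins Gja4 and Gja5, the ephrin Efnb2, the kinase Bmx, the Eph receptor Ephb4 and the nuclear receptor Nr2f2. They were taken by symbol from the 31053 genes of a single-cell RNA study of mouse bone marrow, and all 9 were found. Their UMIs (unique molecular identifiers, 1 per captured transcript) were read in endothelial cells, set as barcodes with at least 500 detected genes, at most 10% mitochondrial UMIs, at least 1 UMI of Cdh5 (VE-cadherin) and fewer than 50 UMIs of the stromal chemokine Cxcl12. This left 8617 of 15624 barcodes.

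The study sampled the marrow niche after deletion of Vegfc, the gene of a lymphatic and sinusoidal growth factor, with 1 library per genotype. The VC library came from mice with Vegfc flox/flox and Cdh5CreERT2, a tamoxifen-activated Cre recombinase driven by the promoter of the endothelial gene Cdh5. The FLOX library came from Vegfc flox/flox mice with no Cre in the label, and the WT library from wild-type mice. All mice were C57Bl/6JCrl and had received tamoxifen by gavage. The samples are labelled as LepR+ cells and endothelial cells of the marrow, taken from flushed and digested tibias after an intravenous VE-cadherin antibody and staining for CD45, Ter119 and LepR. The sources used here give neither the age and number of mice behind each library nor the sort gates. With 1 library per genotype, differences between genotypes have no replicate check and carry no test.

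Arteries and veins differ in their endothelium as well as in their position. In arterial endothelium Notch signalling and SoxF factors are active, the ephrin-B2 ligand is displayed on the cell surface, and connexins couple neighbouring cells. In veins Nr2f2 (COUP-TFII) holds Notch signalling down, and EphB4 is the receptor that meets ephrin-B2 at the boundary between the vessel types. Bone marrow is drained by sinusoids, wide venous capillaries whose endothelium takes up waste through the scavenger receptor Stab2, so Stab2 served here to order the endothelial cells.

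The VC, FLOX and WT libraries held 1840, 3581 and 3196 of these endothelial cells, with medians of 10299.5, 7600 and 10938 UMIs per cell. All 10 endothelial marker genes were detected in every library. Between pairs of libraries 5 to 10 cell barcodes were shared. Vegfc, the targeted gene, had 6 UMIs in VC, 27 in FLOX and 66 in WT endothelial cells, or 0.258, 0.810 and 1.62 CPM (UMIs of a gene per 1000000 UMIs of the cells summed). A 3′ tag may lie outside the deleted part of the gene, so this is a limited check of the labels.

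Cells were placed in 4 bins by their Stab2 UMIs. Cells without a Stab2 UMI numbered 137 in VC, 256 in FLOX and 125 in WT, or 7.45%, 7.15% and 3.91% of the endothelial cells. Without the Cxcl12 limit they would number 172, 312 and 146. Their Gja4 UMIs would then be 256, 304 and 36 in place of 178, 267 and 33. Cells with 5 or more numbered 1476 in VC, 2756 in FLOX and 2800 in WT, or 80.2%, 77.0% and 87.6%. Neutrophil RNA was highest at 1 Stab2 UMI in VC, where the 4 neutrophil markers named below summed to 30289 CPM. In FLOX and WT it was highest among the cells without Stab2. Leukocyte marker RNA was highest among the cells without Stab2 in every library, and there both were most in WT. In that bin the 4 leukocyte markers (Ptprc, Cd52, Coro1a and Laptm5) summed to 685 CPM in VC, 695 CPM in FLOX and 1114 CPM in WT, and the 4 neutrophil markers (S100a8, S100a9, Camp and Ngp) to 15407, 25143 and 43753 CPM. All 4 genes of each list were detected in each library, and a Ptprc UMI was carried by 15.3% of these cells in VC, 21.1% in FLOX and 36.0% in WT. The median Cdh5 count in the bin was 6 UMIs in VC, 5 in FLOX and 1 in WT. Results that rest on this bin are therefore given a further time for cells without blood markers, meaning no Ptprc or Cd79a UMI and fewer than 10 UMIs of the 4 neutrophil genes together, of which 109 VC, 199 FLOX and 75 WT cells had no Stab2.

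The sum of the stromal markers was higher without Stab2 as well, mainly through Cxcl12 and Kitl. The 6 LepR stromal markers (Cxcl12, Adipoq, Lepr, Kitl, Pdgfra and Pdgfrb) summed to 1217 CPM in VC, 1577 CPM in FLOX and 404 CPM in WT at 0 Stab2 UMIs, against 113, 141 and 122 CPM at 5 or more. All 6 were detected in that bin in VC and FLOX and 5 in WT, where Adipoq was at 0. Cxcl12 made up 812, 1092 and 269 CPM of the sum and Kitl 365, 454 and 115 CPM. Lepr had 18.1 CPM in VC, 20.5 CPM in FLOX and 10.5 CPM in WT at 0, below its 40.5, 42.1 and 56.6 CPM at 5 or more, and Adipoq was at most 1.71 CPM at 0. Pdgfra had 3.78 CPM in VC, 2.56 CPM in FLOX and 0.951 CPM in WT at 0, against 3.34, 3.79 and 4.91 CPM at 5 or more. The 5 smooth muscle and pericyte markers summed to 174, 123 and 670 CPM at 0, against 308, 304 and 405 CPM at 5 or more, and their part in the results was not tested. Results on the bin were therefore also computed without cells carrying an Adipoq, Lepr or Pdgfra UMI. Of the cells with no Stab2 this kept 125 in VC, 231 in FLOX and 118 in WT, and of those with 5 or more 926, 1830 and 1560. This setting thus removed mostly Stab2-rich cells, and it did not select on Cxcl12 or Kitl.

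Gja4, Gja5, Bmx, Efnb2 and Nr2f2 had fitted log2 ratios between the Stab2 bins that were larger in size than those of the other 4 genes. That of Gja5 came only from a fit with no filter on low counts. The 250 bases before the start that RefSeq gives each of these genes are shown here for the build GRCm38.p6. They are on the gene's own strand, 5′ to 3′. Matches to 4 short motifs are in capitals. The motifs were ACAAT for SOX factors, TGGGAA for the Notch partner RBPJ, AGGAAG for ETS factors and AGGTCA for nuclear receptors. They were searched on both strands, none of them contains another, and they occur in 27.7%, 21.6%, 29.5% and 14.0% of all 32851 promoters of that length.
Gja4: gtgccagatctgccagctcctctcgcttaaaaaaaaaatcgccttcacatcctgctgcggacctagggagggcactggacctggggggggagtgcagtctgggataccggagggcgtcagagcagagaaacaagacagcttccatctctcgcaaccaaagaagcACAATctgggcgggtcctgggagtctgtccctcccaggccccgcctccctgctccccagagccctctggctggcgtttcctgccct
Gja5: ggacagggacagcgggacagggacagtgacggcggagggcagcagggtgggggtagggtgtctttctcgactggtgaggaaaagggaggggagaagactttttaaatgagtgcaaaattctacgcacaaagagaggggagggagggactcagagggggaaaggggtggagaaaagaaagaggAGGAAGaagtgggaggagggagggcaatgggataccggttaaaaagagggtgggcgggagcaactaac
Bmx: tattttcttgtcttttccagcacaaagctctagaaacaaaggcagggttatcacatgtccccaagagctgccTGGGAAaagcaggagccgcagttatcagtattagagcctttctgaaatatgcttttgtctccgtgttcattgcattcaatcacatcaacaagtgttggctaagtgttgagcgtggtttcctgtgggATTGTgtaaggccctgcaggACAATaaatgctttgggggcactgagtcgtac
Efnb2: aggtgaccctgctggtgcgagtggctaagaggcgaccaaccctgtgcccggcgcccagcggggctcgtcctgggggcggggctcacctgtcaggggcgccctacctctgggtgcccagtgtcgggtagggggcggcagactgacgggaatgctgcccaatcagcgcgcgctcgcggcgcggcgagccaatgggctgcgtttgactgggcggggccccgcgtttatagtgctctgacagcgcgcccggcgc
Nr2f2: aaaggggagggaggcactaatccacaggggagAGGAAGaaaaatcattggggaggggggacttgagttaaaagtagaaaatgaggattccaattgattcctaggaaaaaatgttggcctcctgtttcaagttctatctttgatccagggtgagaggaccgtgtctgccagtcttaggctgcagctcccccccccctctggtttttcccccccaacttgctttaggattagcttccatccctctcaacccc
The Gja4 window lies at chr4:127314040-127314289 on the minus strand and holds 1 ACAAT, from 86 to 82 bases before the start. The Gja5 window lies at chr3:97032152-97032401 on the plus strand and holds 1 AGGAAG, from 68 to 63 bases before the start. The Bmx window lies at chrX:164258194-164258443 on the minus strand and holds 1 TGGGAA, from 178 to 173 bases before the start, and 2 ACAAT, from 52 to 48 on the other strand and from 32 to 28 on its own. The Efnb2 window lies at chr8:8661243-8661492 on the minus strand, and none of the 4 motifs is found in it. The Nr2f2 window lies at chr7:70366747-70366996 on the minus strand and holds 1 AGGAAG, from 218 to 213 bases before the start. Such matches describe the letters only, and each motif stands in many other promoters. A promoter sequence was available for 6 of the 9 genes.

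In GENCODE vM21 (GRCm38), Gja4 lies on chromosome 4 from 127311421 to 127314039, Gja5 on chromosome 3 from 96904693 to 97077416, Efnb2 on chromosome 8 from 8617434 to 8661242 and Nr2f2 on chromosome 7 from 70351944 to 70366735. Sox17 lies on chromosome 1 from 4490931 to 4497354, Sox7 on chromosome 14 from 63943673 to 63950732, Sox18 on chromosome 2 from 181669836 to 181671640, Bmx on chromosome X from 164192842 to 164258193 and Ephb4 on chromosome 5 from 137350109 to 137378669. Efnb2 overlaps E230020D15Rik, Gm45074 and Gm45073 on its own strand, and UMIs of such overlapping genes may have been left uncounted or split. Sox17, Gja5, Ephb4 and Nr2f2 overlap genes on the other strand, and the sources used here do not say how the counting used strand.

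In VC and FLOX, Gja4, Gja5, Bmx, Efnb2 and Sox17 had higher levels in the cells without Stab2 than in those rich in it. In WT, Gja4, Efnb2 and Sox17 were highest at 1 Stab2 UMI. Nr2f2 was highest in the Stab2-rich cells of every library. The comparison of 0 with 5 or more Stab2 UMIs was tested with edgeR's quasi-likelihood test on sums per library and bin, with Benjamini-Hochberg adjustment over 10363 genes and a threshold of 0.05. The 3 libraries served as its replicates although they differ in genotype, so their spread includes that. At 0 Stab2 UMIs 2429 genes were higher (23.4% of those tested) and 2180 were lower (21%). Gja5 did not pass the filter on low counts. Of the 8 genes tested, 5 were higher (Gja4, Bmx, Efnb2, Sox17 and Sox7), 2 were lower (Nr2f2 and Ephb4), and Sox18 did not pass the test. Gja4 and Bmx, under 3 CPM in the richest bin, passed the filter on low counts through the other bins, so these counts are a description of the 8 genes. In cells without blood markers 7 of the 8 were higher and only Nr2f2 was lower, where 18.1% of 9479 genes were higher and 16.9% lower. Without cells carrying an Adipoq, Lepr or Pdgfra UMI, 7 of the 9 were tested: Gja4 (5.80), Efnb2 (2.94) and Sox17 (1.90) were higher, Nr2f2 (-3.53) and Ephb4 (-0.31) were lower, and Sox7 (0.87, edgeR adjusted p 0.0752) and Sox18 (-0.17, edgeR adjusted p 0.291) did not pass. In that comparison 22.8% of 9891 genes were higher and 20.3% lower.

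**Figure D1:**
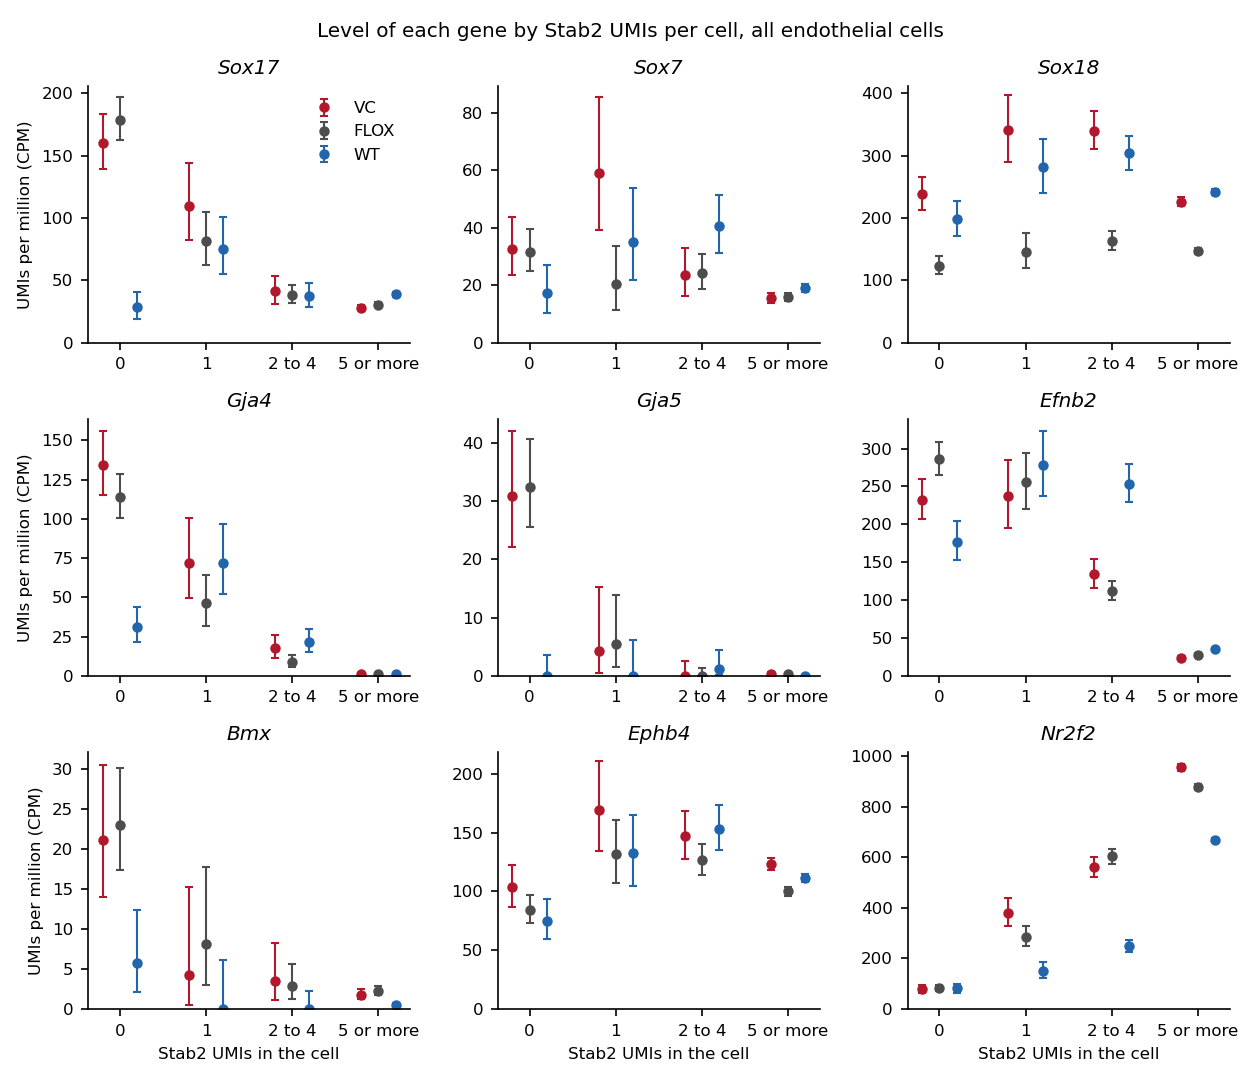
Level of each of the 9 genes in CPM by Stab2 bin (0, 1, 2 to 4, and 5 or more UMIs), with 1 point per library (VC, FLOX and WT) in each bin and bars for the exact 95% Poisson interval of the sum. Gja4 in VC lies at 134 CPM at 0 and 1.44 CPM at 5 or more, Nr2f2 is lowest at 0 and highest at 5 or more in all 3 libraries, and WT lies below the other libraries at 0 for Sox17, Gja4 and Gja5.

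Gja4 encodes connexin 37, a gap junction protein of arterial endothelium. At 0, 1, 2 to 4, and 5 or more Stab2 UMIs, it had 134, 71.9, 17.7 and 1.44 CPM in VC cells. In FLOX cells it had 114, 46.2, 8.91 and 1.31 CPM in the same bins, and in WT cells 31.4, 72.0, 21.7 and 1.36 CPM. The bin without Stab2 stood far above the richest bin in every library, and in WT the peak was at 1 UMI. The fitted log2 ratio of 0 over 5 or more was 6.08 (SE 0.52, edgeR adjusted p 6.05e-05), with Gja4 higher at 0 in 3 of 3 libraries. Among cells without blood markers the level at 0 was 223 CPM in VC, 167 CPM in FLOX and 57.9 CPM in WT, and the log2 ratio was 7.06 (edgeR adjusted p 2.27e-05).

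Gja5 encodes connexin 40, the other arterial connexin of the set, and was rare. It had 50 UMIs in 17 VC cells, 87 UMIs in 28 FLOX cells and 2 UMIs in 1 WT cell. Without Stab2 the level was 31.0 CPM in VC, 32.5 CPM in FLOX and 0 in WT, where 3 UMIs, the limit that a count of 0 allows, would be 2.85 CPM. At 5 or more Stab2 UMIs it was 0.35 CPM in VC, 0.26 CPM in FLOX and 0 in WT. In cells without Stab2 and without blood markers it was 51.6 CPM in VC, 46.6 CPM in FLOX and 0 in WT. When the filter on low counts was dropped, the log2 ratio of 0 over 5 or more was 6.53 (edgeR adjusted p 1.58e-06), with no WT UMI in either bin.

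Cells with at least 1 Gja4 or Gja5 UMI numbered 76 in VC, 152 in FLOX and 74 in WT. Of these, 59.2% in VC, 64.5% in FLOX and 23.0% in WT had no Stab2 UMI, and 17.1%, 15.1% and 36.5% had 5 or more. The 95% Clopper-Pearson intervals of the first share were 47.3 to 70.4% in VC, 56.3 to 72.1% in FLOX and 14.0 to 34.2% in WT. Most connexin-bearing cells of each library thus lay outside the Stab2-rich bin, while the bin without Stab2 held most of them in VC and FLOX but not in WT.

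Efnb2 encodes ephrin-B2, the arterial ligand of EphB4. At 0, 1, 2 to 4, and 5 or more Stab2 UMIs it had 233, 237, 134 and 23.9 CPM in VC. The same bins held 286, 255, 112 and 27.7 CPM in FLOX, and 177, 278, 254 and 35.0 CPM in WT. It was highest at 0 or 1 Stab2 UMI in each library, and a UMI of it was carried by 23.2% of all endothelial cells in VC, 22.0% in FLOX and 21.7% in WT. The log2 ratio of 0 over 5 or more was 3.09 (SE 0.31, edgeR adjusted p 0.000113; higher in 3 of 3 libraries) and 3.81 (edgeR adjusted p 6.51e-06) without blood markers.

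Bmx encodes a Tec family kinase used as a marker of arterial endothelium. It was a low gene, with 71 UMIs in VC, 130 in FLOX and 24 in WT. In cells without Stab2 it had 21.1 CPM in VC, 23.1 CPM in FLOX and 5.71 CPM in WT, and at 5 or more 1.79, 2.26 and 0.48 CPM. The log2 ratio was 3.46 (SE 0.43, edgeR adjusted p 1.17e-05), higher at 0 in 3 of 3 libraries. Without blood markers Bmx at 0 Stab2 UMIs was 27.7 CPM in VC, 32.1 CPM in FLOX and 0 in WT, and the log2 ratio was 6.44 (edgeR adjusted p 2.11e-07). At 5 or more it then had 0, 9 and 5 UMIs in VC, FLOX and WT. It passed the filter on low counts through the other bins, so this ratio is a description. In WT, with 0 and 5 UMIs, the direction was the opposite (-0.19, with 1 CPM added).

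Bmx also moved with neutrophil RNA. Among endothelial cells with at least 10 UMIs of the 4 neutrophil genes, 37.8% in VC, 32.2% in FLOX and 5.66% in WT carried a Bmx UMI, against 0.623%, 1.18% and 0.291% of cells under 10. Among leukocytes (at least 1 Ptprc UMI and no Cdh5 UMI) the shares were 35.9%, 28.5% and 28.7% with at least 10 neutrophil UMIs and 2.25%, 3.13% and 6.85% under 10. The median depth of the endothelial cells with at least 10 was 21137 UMIs in VC, 18994 in FLOX and 13395.5 in WT, against 10138.5, 7474.5 and 10866.5 under 10. Bmx was thus also measured in leukocytes.

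**Figure D2:**
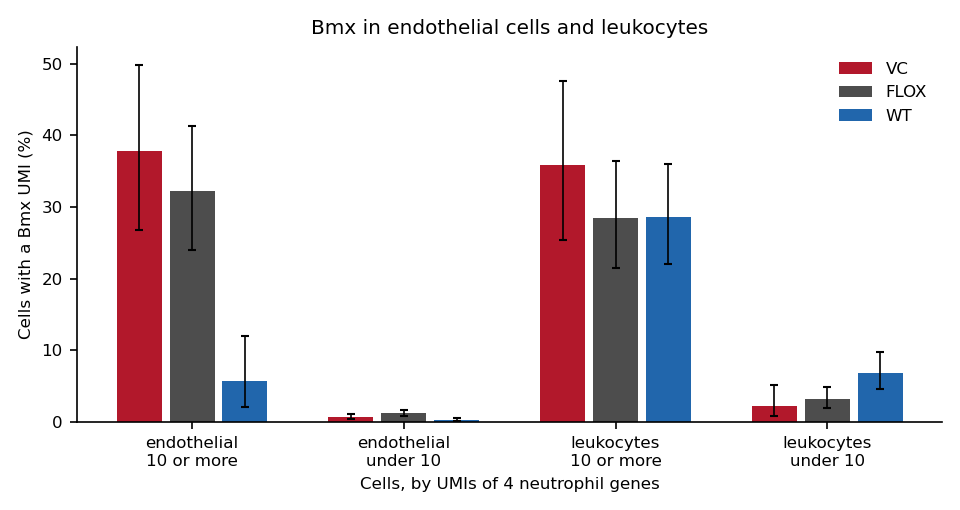
Share of cells with a Bmx UMI, in percent with exact 95% Clopper-Pearson intervals, for endothelial cells and leukocytes of each library, split at 10 UMIs of S100a8, S100a9, Camp and Ngp together. Cells with at least 10 neutrophil UMIs lie above the others in both kinds of cell, with 37.8% of VC and 5.66% of WT endothelial cells.

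The SoxF factors Sox17, Sox7 and Sox18 share a DNA-binding domain and act together in vascular development, with Sox17 the one tied most to arteries. Sox17 had 160, 110, 41.2 and 28.1 CPM in VC cells at 0, 1, 2 to 4, and 5 or more Stab2 UMIs, and 179, 81.5, 38.5 and 30.2 CPM in FLOX cells. In WT cells it had 28.5, 75.4, 37.4 and 38.9 CPM. Sox17 was thus highest without Stab2 in VC and FLOX, while in WT that bin held the lowest level. The log2 ratio of 0 over 5 or more was 1.91 (SE 0.51, edgeR adjusted p 0.0227), with Sox17 higher at 0 in 2 of 3 libraries. Leaving out 1 library decided the call: the ratio was 1.5 (edgeR adjusted p 0.232) without VC, 1.47 (edgeR adjusted p 0.288) without FLOX and 2.55 (edgeR adjusted p 6.09e-10) without WT. The call was also lost with no filter on low counts (1.81) and with the outer bins alone (1.78). In cells without blood markers the level at 0 was 258 CPM in VC, 273 CPM in FLOX and 56.0 CPM in WT, above the 27.5, 30.6 and 38.7 CPM at 5 or more in all 3 libraries, with a log2 ratio of 2.60 (edgeR adjusted p 0.00299).

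Sox7 varied less between the bins. Without Stab2 it had 32.5 CPM in VC, 31.6 CPM in FLOX and 17.1 CPM in WT, and at 5 or more 15.5, 15.9 and 19.1 CPM. The log2 ratio was 0.79 (SE 0.29, edgeR adjusted p 0.0436; higher at 0 in 2 of 3 libraries), a call kept under 6 of 14 alternatives and lost without VC (0.59) and without FLOX (0.65). Without blood markers it was 1.43 (edgeR adjusted p 5.27e-05).

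Sox18 was broad, with a UMI in 82.0% of VC, 62.6% of FLOX and 82.3% of WT endothelial cells. At 0, 1, 2 to 4, and 5 or more Stab2 UMIs it had 238, 340, 340 and 226 CPM in VC, 123, 145, 163 and 147 CPM in FLOX, and 198, 281, 304 and 242 CPM in WT. Its log2 ratio of 0 over 5 or more was -0.13 (SE 0.11, edgeR adjusted p 0.394). Without blood markers the ratio was 0.53 (edgeR adjusted p 0.000396), so that its sign depended on which cells were counted.

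Nr2f2 encodes COUP-TFII, the nuclear receptor that sets venous identity, and its level climbed with Stab2 in every library. At 0, 1, 2 to 4, and 5 or more Stab2 UMIs it had 77.8, 381, 560 and 955 CPM in VC. It had 84.2, 285, 603 and 879 CPM in FLOX, and 81.8, 152, 249 and 667 CPM in WT. The log2 ratio of 0 over 5 or more was -3.31 (SE 0.25, edgeR adjusted p 6.32e-06), lower at 0 in 3 of 3 libraries, and -2.67 (edgeR adjusted p 0.000763) without blood markers. A UMI of Nr2f2 was found in 90.9% of VC, 89.1% of FLOX and 90.6% of WT endothelial cells.

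Ephb4, the venous receptor for ephrin-B2, hardly followed Stab2. It had 103, 169, 147 and 123 CPM in VC from 0 to 5 or more Stab2 UMIs, 84.6, 132, 127 and 100 CPM in FLOX, and 75.1, 132, 153 and 111 CPM in WT. The bin without Stab2 was the lowest in each library, with a log2 ratio over the richest bin of -0.30 (SE 0.11, edgeR adjusted p 0.0339). This call was lost without VC (-0.40), without FLOX (-0.30) and without WT (-0.24). In cells without blood markers the direction turned: Ephb4 at 0 had 162 CPM in VC, 144 CPM in FLOX and 135 CPM in WT, against 126, 104 and 111 CPM at 5 or more, with a log2 ratio of 0.35 (edgeR adjusted p 0.00813).

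**Figure D3:**
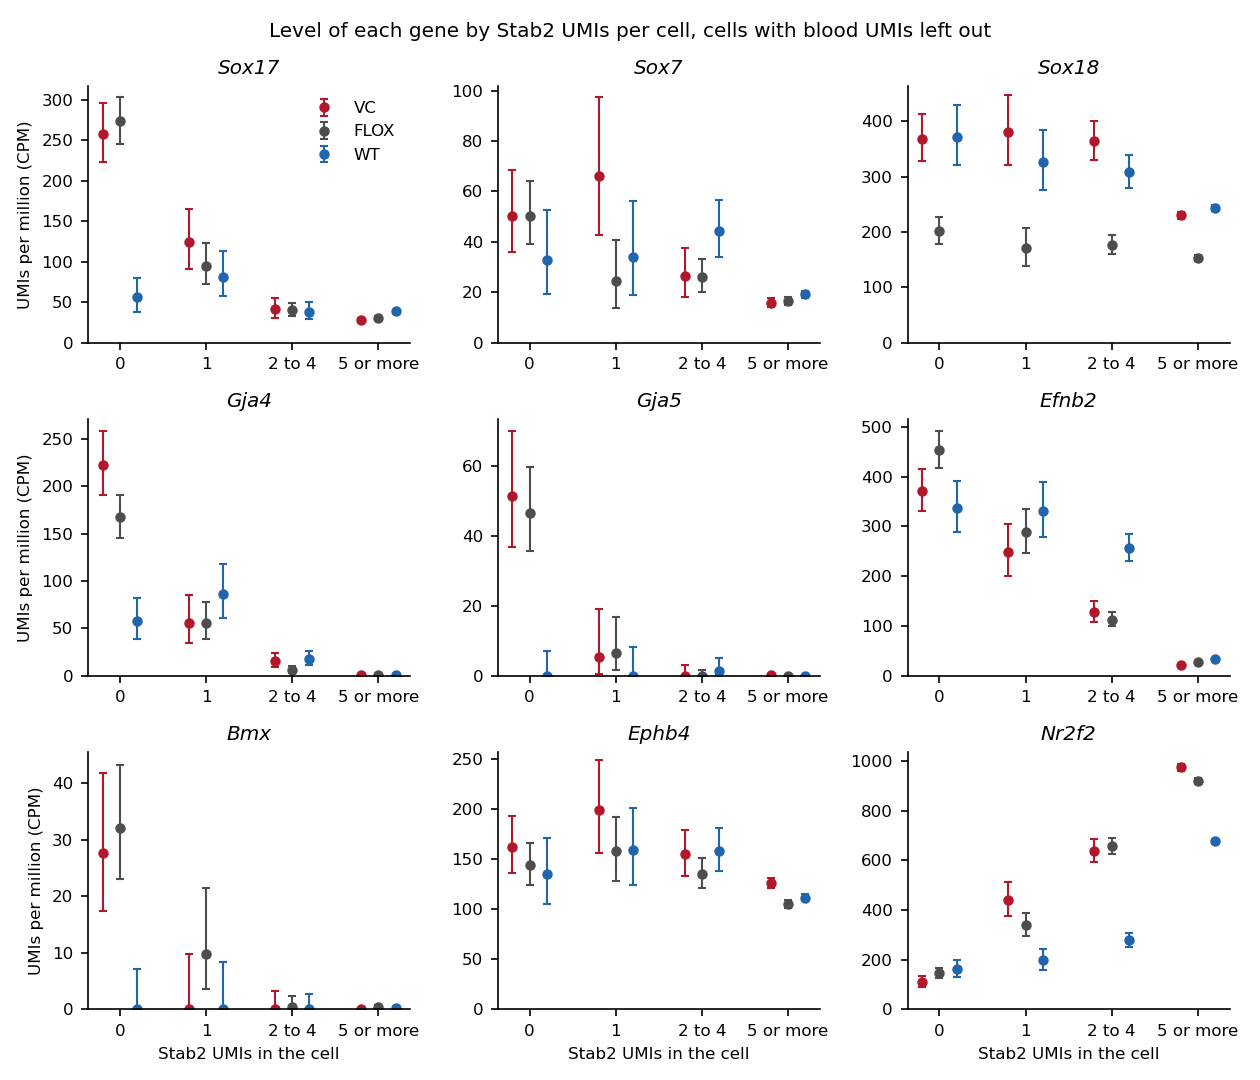
Level of the 9 genes in CPM by Stab2 bin in cells without blood markers, drawn as in the plot of all endothelial cells with exact 95% Poisson intervals. At 0 Stab2 UMIs Sox17 has 258 CPM in VC, 273 CPM in FLOX and 56.0 CPM in WT, Ephb4 lies above its level at 5 or more in each library, and Gja5 and Bmx are at 0 in WT.

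**Figure D4:**
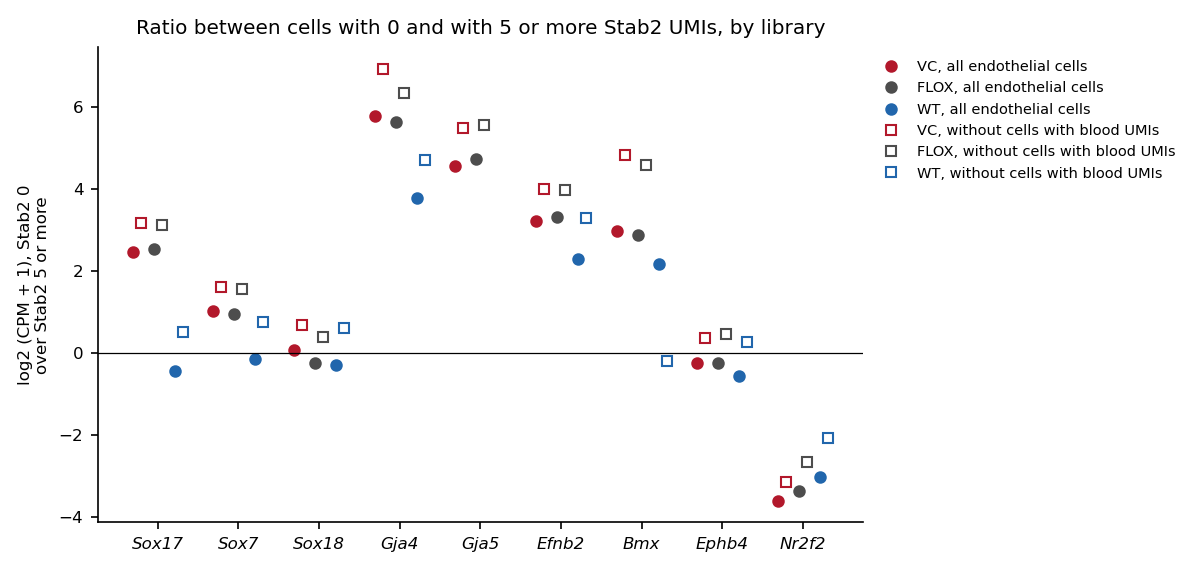
Log2 ratio of the CPM at 0 Stab2 UMIs over that at 5 or more (pseudocount 1 CPM) for each gene and library, in all endothelial cells and in cells without blood markers; a gene with 3 or fewer UMIs in both bins is left out. Gja4, Efnb2 and Nr2f2 keep 1 sign in all libraries, while Sox17 is at 2.47 in VC, 2.53 in FLOX and -0.43 in WT when all endothelial cells are used.

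Other genes of the same pathways followed Stab2 in the same comparison. Of 15 arterial genes, 14 were tested, 9 were higher without Stab2, 2 were lower and 3 did not pass, with a median log2 ratio of 2.40 against 0.01 over all genes tested. Of all genes tested 23.4% were higher and 21% lower. Hey1, a Notch target, had a log2 ratio of 5.63 (edgeR adjusted p 0.000263), Edn1 (endothelin) 4.85 (edgeR adjusted p 0.0181), the transcription factor Mecom 4.25 (edgeR adjusted p 0.00026) and the semaphorin Sema3g 3.95 (edgeR adjusted p 0.000602). Hey1 and Edn1 had no UMI in the WT cells without Stab2, and 46.1 and 62.7 CPM in VC and 43.1 and 34.6 CPM in FLOX. In the richest bin they were at most 0.73 and 1.58 CPM. Mecom had 4.43 CPM in VC, 6.81 CPM in FLOX and 2.54 CPM in WT in that bin. Hey1, Edn1 and Mecom passed the filter on low counts through the other bins, so their ratios and the list counts are a description. The Notch ligand Jag1 (-0.89, edgeR adjusted p 0.0305) and the receptor Notch1 (-0.59, edgeR adjusted p 0.000155) were the 2 lower ones. In cells without blood markers 13 were tested, 11 were higher and 0 lower, where 18.1% of all genes were higher and 16.9% lower. Their median log2 ratio was 2.80, and Jag1 (-0.18, edgeR adjusted p 0.525) and Notch1 (0.00, edgeR adjusted p 0.987) did not pass. Notch1 there had 358 CPM in VC, 345 CPM in FLOX and 324 CPM in WT at 0 Stab2 UMIs, against 341, 340 and 325 CPM at 5 or more. Without cells carrying an Adipoq, Lepr or Pdgfra UMI, 12 arterial genes were tested, Hey1 and Edn1 not among them. Of these 7 were higher and 2 lower (Jag1 at -1.05 and Notch1 at -0.62), with a median of 1.40. In that setting 22.8% of all genes were higher and 20.3% lower.

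Of 11 venous and sinusoidal genes, 9 were tested and 8 were lower without Stab2, 0 higher, with a median log2 ratio of -2.82. Over all genes tested 21% were lower and 23.4% higher. The chemokine receptor Ackr1 (-4.47), the protease Adamts5 (-4.44), the adhesion molecules Selp (-3.83) and Vcam1 (-3.42) had the lowest ratios. Of 8 ephrins and Eph receptors, 5 were tested: Ephb1 (4.34), Epha4 (1.77) and Efnb1 (1.68) were higher and Efna1 (-0.43) was lower. Of the other 2 connexins, Gjc1 was higher (4.59) and Gja1 lower (-0.74), and Nr2f1, the paralogue of Nr2f2, was lower (-2.99). Ephb1 and Gjc1 were at most 0.51 and 0.77 CPM in the richest bin. Both passed the filter on low counts through the other bins, so their ratios are a description. Of 8 pan-endothelial genes 5 were lower and 0 higher, among them Cldn5 (-1.46), Kdr (-1.13), Tek (-1.10) and Esam (-0.65). The 10 endothelial markers summed to 4240 CPM in VC, 4298 CPM in FLOX and 4198 CPM in WT at 0 Stab2 UMIs and to 6222, 6283 and 6936 CPM at 5 or more.

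Without blood markers several of these calls changed. Of the venous and sinusoidal genes 7 of 9 tested were lower and Emcn, the gene of endomucin, was higher (0.62, edgeR adjusted p 8.7e-06), with a median of -2.21. Over all genes tested in these cells 16.9% were lower and 18.1% higher. Ephb1 (5.22), Efnb1 (2.39), Epha4 (2.32) and Gjc1 (5.48) were again higher and Nr2f1 (-2.54) lower, while Efna1 (0.22, edgeR adjusted p 0.170) and Gja1 (-0.13, edgeR adjusted p 0.391) did not pass. Of the 8 pan-endothelial genes 3 were higher (Pecam1 at 0.86, Tie1 at 0.63 and Egfl7 at 0.62) and 3 lower (Cldn5 at -0.80, Kdr and Tek at -0.46 each), and Esam (0.01, edgeR adjusted p 0.971) did not pass. Without cells carrying an Adipoq, Lepr or Pdgfra UMI, 8 of 9 venous and sinusoidal genes were lower, with a median of -2.75. Of the ephrins and Eph receptors 4 were tested there, without Ephb1. They gave 2 higher and 1 lower, with a median of 0.62 against 1.68 in all endothelial cells. Of the 9891 genes tested in this setting 22.8% were higher and 20.3% lower.

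Between the genotypes, over all endothelial cells, Sox18 was the only one of the 6 genes over the minimum (a mean of 10 CPM and 50 UMIs) that differed by 1.5-fold. It had 236 CPM (95% Poisson interval 230 to 242) in VC, 146 CPM (142 to 151) in FLOX and 244 CPM (239 to 249) in WT. VC was 1.61-fold FLOX (1.55 to 1.68) and FLOX was 0.6-fold WT (0.580 to 0.621), with VC at 0.969 of WT. The FLOX library stood apart from both others, and no gene of the set differed by 1.5-fold in VC from FLOX and WT alike, except Gja4 (higher) when cells with a Cxcl9 UMI, an interferon-induced gene, were left out. That setting kept 512 VC, 1992 FLOX and 1375 WT cells, of which 81, 235 and 113 had no Stab2 UMI. It thus raised the share of cells without Stab2 in each library, most in VC. The part of this shift in the Gja4 call was not tested. Over all 8376 genes past the minimum, 2.04% were higher and 0.919% lower in VC than in FLOX, 3.21% higher and 3.43% lower in VC than in WT, 2.05% higher and 2.07% lower in FLOX than in WT, and 1.44% higher and 0.382% lower in VC than in both. The FLOX library had the lowest median depth per cell, and the part of depth in this difference was not tested.

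Nr2f2 averaged 870 CPM in VC, 786 CPM in FLOX and 628 CPM in WT, which puts VC at 1.39-fold WT (1.36 to 1.41) and FLOX at 1.25-fold WT (1.23 to 1.28). Between 2 and 4 Stab2 UMIs it was 560 CPM in VC, 603 CPM in FLOX and 249 CPM in WT, a wider gap than among Stab2-rich cells. Sox17 had 38.1 CPM in VC, 42.5 CPM in FLOX and 39.1 CPM in WT, and Efnb2 46.7, 57.9 and 51.1 CPM. Sox7 had 17.9, 17.8 and 20.1 CPM and Ephb4 124, 102 and 112 CPM. None of these 5 genes reached 1.5-fold between any pair of libraries, although in VC over WT Nr2f2 did under median-of-ratios scaling (906 CPM in VC and 593 CPM in WT) and Sox17 did in cells with 0 Cxcl9 UMIs (64.6 CPM in VC and 36.7 CPM in WT). In cells with 0 Cxcl9 UMIs, Sox17 had 213 CPM in VC and 28.6 CPM in WT at 0 Stab2 UMIs. At 5 or more it had 28.3 CPM in VC and 35.2 CPM in WT. The other 3 genes lay below the minimum: Gja4 had 11.4 CPM in VC, 10.9 CPM in FLOX and 4.0 CPM in WT, or 2.86-fold (2.34 to 3.49) in VC and 2.72-fold (2.25 to 3.29) in FLOX over WT. Gja5 in VC was 43.8-fold WT (11.5 to 371) on 50 and 2 UMIs, and Bmx 5.18-fold WT (3.22 to 8.60).

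In the cells without Stab2 the gap between libraries was wider. There Sox17, Sox7 and Gja4 were at least 1.5-fold higher in VC than in WT, as were 11.7% of 8596 genes, and these 3 and Efnb2 were higher in FLOX than in WT, again as were 11.7%. Gja5 and Bmx also lay past 1.5-fold in both, but reached the minimum through the VC and FLOX libraries alone and are given as values only. Sox18 was higher in VC than in FLOX, against 4.7%, and lower in FLOX than in WT, against 14.7%. Sox17 in that bin was 5.61-fold WT in VC (3.82 to 8.52) and 6.27-fold WT in FLOX (4.33 to 9.41). Gja4 was 4.28-fold WT in VC (2.94 to 6.41) and 3.63-fold in FLOX (2.53 to 5.39), and Gja5, set against 3 UMIs in WT where none was counted, at least 10.8-fold higher in VC and 11.4-fold higher in FLOX. The lower 95% limits of these Gja5 ratios, with the counting error of both libraries, were 8.43 in VC and 9.03 in FLOX. VC and FLOX lay close to each other: Sox17 in VC was 0.894 of FLOX (0.755 to 1.06) and Gja4 1.18 of FLOX (0.969 to 1.43). In cells without blood markers Sox17 was 4.61-fold WT in VC (3.11 to 7.05) and 4.88-fold WT in FLOX (3.34 to 7.40), Gja4 3.84-fold in VC (2.60 to 5.87) and 2.89-fold in FLOX (1.97 to 4.38), and Gja5, on the same basis, at least 8.91-fold higher in VC and 8.04-fold higher in FLOX, with lower limits of 6.92 and 6.35. Without cells carrying an Adipoq, Lepr or Pdgfra UMI Sox17 was 5.29-fold WT in VC (3.59 to 8.06) and 5.74-fold WT in FLOX (3.95 to 8.63). In those cells Efnb2 was 1.34-fold WT in VC (1.10 to 1.64) and 1.68-fold in FLOX (1.42 to 2.01), and Sox7 1.95-fold in VC (1.08 to 3.66). In cells without blood markers Efnb2 was 1.10-fold WT in VC (0.908 to 1.33) and 1.34-fold in FLOX (1.13 to 1.60). Sox7 was then 1.53-fold in VC with an interval of 0.85 to 2.88. For Sox17, Gja4 and Gja5 in this bin both Vegfc-floxed libraries, with and without Cre, lay above WT, and with 1 library each, genotype and library cannot be told apart.

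In the bins between, the order of the libraries changed. Between 2 and 4 Stab2 UMIs, 7 of the 9 genes were over the minimum, and Efnb2 and Sox7 were lower in VC than in WT (12% of 8319 genes were). Efnb2 there had 134 CPM in VC, 112 CPM in FLOX and 254 CPM in WT, or 0.529-fold (0.443 to 0.629) in VC and 0.440-fold (0.379 to 0.511) in FLOX. Efnb2, Sox7, Sox18 and Gja4 were lower in FLOX than in WT (8.88% of all were), and Sox18 and Gja4 were higher in VC than in FLOX (4.76%). Nr2f2 was 2.25-fold WT (1.99 to 2.54) in VC and 2.42-fold WT (2.17 to 2.70) in FLOX, where 6.98% and 6.85% of all genes were higher.

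At 1 Stab2 UMI, Sox7 had 59.2 CPM in VC, 20.4 CPM in FLOX and 35.2 CPM in WT, the only gene of the set called higher in VC than in both others in any bin (3.98% of 5347 genes were). Its VC to WT ratio of 1.68 had an interval of 0.922 to 3.12, which includes equal levels. Sox7, Sox18 and Gja4 were higher in VC than in FLOX (8.29% of all genes were) and lower in FLOX than in WT (8.9%). For Gja4 these ratios were 1.56 (0.939 to 2.58) and 0.641 (0.397 to 1.03). Sox7 in FLOX was 0.579 of WT (0.278 to 1.18). Each of these intervals of Gja4 and Sox7 includes equal levels. Without blood markers Gja4 at 1 Stab2 UMI had 55.5 CPM in VC, 55.7 CPM in FLOX and 86.1 CPM in WT. Sox7 and Nr2f2 were higher in VC than in WT (10%) and Nr2f2 higher in FLOX than in WT (8.1%). Among Stab2-rich cells only Sox18 was called, with 226 CPM in VC, 147 CPM in FLOX and 242 CPM in WT (2.09% of all genes were higher in VC than in FLOX and 2.21% lower in FLOX than in WT).

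Arterial and venous genes were often found in 1 cell. The arterial set was Sox17, Gja4, Gja5, Efnb2 and Bmx, the venous set Ephb4 and Nr2f2, and every cell was thinned to 2000 UMIs so that depth did not differ between cells; 39 VC, 67 FLOX and 58 WT cells were shallower and were left out. A UMI of both sets was carried by 9.61% of cells in VC (8.28 to 11.1%), 9.65% in FLOX (8.69 to 10.7%) and 9.40% in WT (8.4 to 10.5%). Without thinning the shares were 39.8%, 35.0% and 44.1%. With Gja4, Gja5 and Bmx alone as the arterial set they were 0.888%, 0.569% and 0.351%, so most of these cells were counted through Efnb2 or Sox17.

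The mixed cells were more frequent at 0 or 1 Stab2 UMI than at 5 or more. At 0 Stab2 UMIs 19.7% of cells in VC (12.9 to 28.0%), 20.8% in FLOX (15.8 to 26.5%) and 14.1% in WT (7.95 to 22.6%) held a gene of each set, against 7.93%, 8.12% and 8.85% at 5 or more. In the bins between, the shares were 25%, 16.8% and 16.9% at 1 Stab2 UMI and 13.1%, 11.6% and 12.6% at 2 to 4. Without blood markers they were 25.8%, 26.7% and 25% at 0 and 7.66%, 8.22% and 8.75% at 5 or more. Cells with an arterial gene alone made up 36.8% in VC, 40.3% in FLOX and 13.1% in WT at 0 and 1.29%, 2.58% and 3.51% at 5 or more; without blood markers the shares at 0 were 47.2%, 48.3% and 25%. Neither set was seen in 30.8% in VC, 30.5% in FLOX and 63.6% in WT at 0, and without blood markers in 12.4%, 14.4% and 36.5%.

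**Figure D5:**
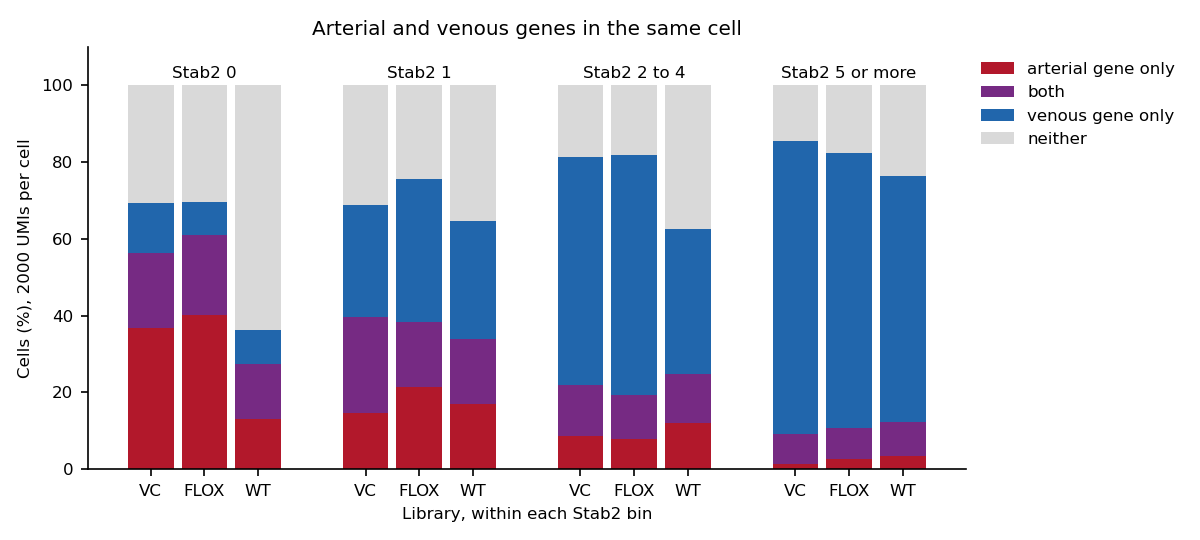
Share of endothelial cells, thinned to 2000 UMIs, with an arterial and a venous gene, an arterial gene alone, a venous gene alone or neither, in percent by Stab2 bin and library. Arterial-only cells make up 36.8% of VC and 13.1% of WT cells at 0 Stab2 UMIs and under 4% of cells at 5 or more, where venous-only cells make up 76.4% in VC, 71.8% in FLOX and 64.0% in WT.

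Over all bins, a venous gene was found in 67.6% of cells with an arterial gene and 81.0% of cells without one in VC, in 60.4% and 77.8% in FLOX, and in 67.2% and 69.9% in WT. Among cells with 5 or more Stab2 UMIs these shares were 86.0% and 84.1% in VC, 75.9% and 80.4% in FLOX, and 71.6% and 73.1% in WT. The lower share of venous genes among arterial cells seen over all bins was thus small or missing within the Stab2-rich bin. At 0 Stab2 UMIs these shares were 34.8% and 29.4% in VC, 34.0% and 21.7% in FLOX, and 51.9% and 12.5% in WT. They rest on 117, 236 and 99 cells. At 0 Stab2 UMIs without blood markers a venous gene was found in 35.4% of cells with and 54.2% of cells without an arterial gene in VC. The shares were then 35.6% and 42.2% in FLOX, and 50% and 26.9% in WT, on 89, 180 and 52 cells. In VC and FLOX the direction in this bin thus depended on which cells were counted.

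The pairs differed in how they shared cells. Nr2f2 and Gja4 were mostly apart: after thinning, Nr2f2 was found in 14.3% of Gja4-bearing cells in VC (5 of 35), 9.68% in FLOX (6 of 62) and 23.1% in WT (3 of 13), against 73.6%, 70.1% and 62.8% of cells without Gja4. Summed over all cells with a Gja4 UMI, Nr2f2 had 267 CPM in VC, 180 CPM in FLOX and 180 CPM in WT, against 899, 817 and 645 CPM in the rest. Efnb2 and Gja4 went together: Efnb2 had 380 CPM in VC, 434 CPM in FLOX and 383 CPM in WT in cells with Gja4, against 30.5, 38.7 and 38.6 CPM in cells without it. Sox17 had 224 CPM in VC, 256 CPM in FLOX and 62.8 CPM in WT in cells with Gja4, against 29.0, 31.6 and 38.2 CPM without it.

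The ligand and receptor pair Efnb2 and Ephb4 was not split between cells. Ephb4 was found in 29.4% of Efnb2-bearing cells in VC, 23.1% in FLOX and 27.8% in WT, against 22.6%, 18.8% and 18.9% of cells without Efnb2. Its level was 143 CPM in VC, 120 CPM in FLOX and 137 CPM in WT in cells with Efnb2, against 117, 95.6 and 103 CPM in cells without it. Nr2f2 was found in 43.4% of Efnb2-bearing cells in VC, 40.4% in FLOX and 47.2% in WT, against 74.9%, 72.0% and 63.8% of the others. Doublets were not called, and their part in the shared cells was not tested.

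Outside the endothelium Sox17, Sox7, Sox18, Gja4, Gja5 and Efnb2 were low, with at most 2.5% of cells carrying a UMI (Efnb2 in WT stromal cells). In stromal cells (at least 50 Cxcl12 UMIs and no Cdh5 UMI) Nr2f2 had 17.7 CPM in VC, 15.2 CPM in FLOX and 18.5 CPM in WT, and Ephb4 16.1, 13.3 and 15.8 CPM. A UMI of Nr2f2 was found in 18.3%, 15.3% and 15.0% of stromal cells in VC, FLOX and WT, at median depths of 13475.5, 11247 and 10294.5 UMIs, far below its 90.9%, 89.1% and 90.6% in endothelial cells. Bmx was the exception, with 9.73 CPM in VC, 9.16 CPM in FLOX and 16.8 CPM in WT leukocytes.

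The genes whose levels were most like those of each member over the 12 sums of library and bin, by Pearson's r of log2(CPM + 1) among 8616 genes, are given as a description, since the sums share libraries, depth and blood cell content. They were Fbln5 for Sox17 (r = 0.958), Hpcal1 for Sox7 (0.950), Mcam for Sox18 (0.867), Fbln2 for Gja4 (0.993), Ptprr for Gja5 (0.965) and Mcc for Efnb2 (0.992). For Bmx it was Serpinf1 (0.912), for Ephb4 Cd93 (0.981), and for Nr2f2 Clca3a1 (0.991), followed by Adamts5 (0.989). Gja5 and Bmx were below the minimum level set for these comparisons.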

How the data were processed

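Droplet 3′ RNA sequencing was measured in 3 libraries, 1 each for VC, FLOX and WT. The deposited files hold raw UMI counts per gene and barcode, whole numbers not normalised by the authors. Per the submitters' processing notes the tools were Cell Ranger 2.1.1 and Seurat 3.1 with build mm10, but the matrices' own header reads software version 3.1.0, which leaves the counting version uncertain. Total depth was 37361779 UMIs in VC, 61758462 in FLOX and 56853574 in WT.

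The genes, the lists and the Stab2 bins were chosen with earlier results of these data known. Raw UMIs were summed per library and Stab2 bin. Levels carry exact Poisson and shares exact Clopper-Pearson intervals at 95%, which cover counting error only. Between genotypes a gene was called at 1.5-fold or more when its mean was at least 10 CPM with at least 50 UMIs, and no test was made. The 12 sums were fitted in edgeR 4.0.16 (R 4.3.3; TMM, filterByExpr, robust quasi-likelihood, library and bin as terms, Stab2 left out), checked on simulated data; the SE is that implied by the F statistic. The library term pairs the bins of 1 library, since they come from the same cells' pool. Thinning used seed 1. No doublet caller was run; a setting without cells carrying markers of other cells and without the 5% deepest stands for it. Genes outside the 9 were named by rule: up to 4 per list and direction with the largest log2 ratio among those past the threshold, and for each of the 9 those most alike. Leaving out cells with blood markers, or those with an Adipoq, Lepr or Pdgfra UMI, was an alternative chosen after seeing the data. DESeq2 1.42.0 served as an alternative. Promoters came from RefSeq (GRCm38.p6).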

Additional observations from a re-analysis of the deposited data

Results flagged for a closer look

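Several genes moved with Stab2 in opposite directions in the libraries, with 1 library each, so these differences were not tested. On the log2 scale of CPM at 0 Stab2 UMIs over 5 or more, with 1 CPM added, Sox17 was at 2.47 in VC, 2.53 in FLOX and -0.43 in WT. Sox7 was at 1.02 in VC, 0.95 in FLOX and -0.15 in WT. Sox18 was at 0.07 in VC, -0.25 in FLOX and -0.29 in WT. Hey1 was at 4.84 in VC, 4.67 in FLOX and -0.31 in WT, and Edn1 at 5.15, 4.63 and -1.36, both with 0 UMIs in the WT cells without Stab2. In cells without blood markers Sox17 was at 3.18 in VC, 3.12 in FLOX and 0.52 in WT, Sox7 at 1.60, 1.57 and 0.75, and Sox18 at 0.68, 0.40 and 0.61, so these 3 no longer differed in sign.

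Signal of 8 of the 9 genes also lay in cells outside the endothelial ones, above the 3 UMIs that a count of 0 allows; Sox7 did not pass that limit. In leukocytes Bmx had 9.73 CPM in VC, 9.16 CPM in FLOX and 16.8 CPM in WT, Nr2f2 3.31, 4.25 and 2.91 CPM, and Ephb4 1.75, 1.51 and 0.485 CPM. Efnb2 had 0.85 CPM in FLOX and 1.21 CPM in WT leukocytes, Sox18 0.756 and 0.485 CPM, and Sox17 0.485 CPM in WT. In stromal cells Nr2f2 had 17.7 CPM in VC, 15.2 CPM in FLOX and 18.5 CPM in WT, Ephb4 16.1, 13.3 and 15.8 CPM, Bmx 5.0, 10.9 and 9.06 CPM, and Efnb2 0.91, 1.18 and 3.77 CPM. There Sox18 had 0.758 CPM in VC and 0.553 CPM in FLOX, Gja4 0.606 CPM in VC and 0.948 CPM in FLOX, Gja5 0.758 CPM in VC and 1.51 CPM in WT, and Sox17 0.553 CPM in FLOX.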

How the results depend on the processing

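Between Stab2 0 and 5 or more, Gja4, Efnb2 and Nr2f2 kept their direction and call under all 14 alternatives, and Bmx under the 11 that gave it a value. Bmx was near 0 in the richest bin, and without blood markers its ratio in the WT library alone was -0.19. Sox17 lost its call under 4 of 14 and Sox7 under 8 of 14. Sox18 turned to 0.26 with Stab2 counted after thinning, 0.45 with at least 2 Cdh5 UMIs, 0.51 without cells carrying markers of other cells and the 5% deepest, and 0.53 without blood markers; Ephb4 turned to 0.061, 0.25, 0.40 and 0.35 in the same settings. For Sox18 and Ephb4 the cause was not tested. Leaving out each library in turn gave 1590 to 2338 genes higher (15.6 to 21.6% of those tested) and 1308 to 2260 lower at 0 (12.8 to 20.9%), and 2 to 6 of the 9 higher and 1 lower. The setting without other cells' markers and the 5% deepest gave 1480 genes higher (16.4%) and 1443 lower (16%). Without the library term (no replicate block) 2040 genes were higher (19.7%) and 1796 lower (17.3%), and 4 of the 9 were higher and 1 lower. Using the outer bins alone gave 3 higher and 1 lower of the 9 (17.4% and 16.5% of all genes), and leaving out cells with an Adipoq, Lepr or Pdgfra UMI gave 3 higher (22.8%). The lower count was also 1 with thinned Stab2, with at least 1000 genes and at most 5% mitochondrial UMIs, with at least 2 Cdh5 UMIs, without other cells' markers and without blood markers, where 16 to 21.1% of all genes were lower. It was 3 with no upper limit on Cxcl12 (22.1%).

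Between genotypes, of the 9 genes past 1.5-fold, VC over WT gave 1 (Gja4) without the Cxcl12 limit and 1 (Gja4) without the stromal markers named above, 2 (Sox17 and Gja4) in cells with 0 Cxcl9 UMIs, 1 (Nr2f2) under median-of-ratios scaling, 1 (Gja4) at a common Stab2 makeup and 3 (Gja4, Gja5 and Bmx) with no minimum. FLOX over WT gave 1 without the Cxcl12 limit, 1 without those stromal markers, 1 in cells with 0 Cxcl9 UMIs and 3 with no minimum. In cells with 0 Cxcl9 UMIs VC over FLOX gave 2 and VC over both gave 1 (Gja4). That setting also raised the share of cells without Stab2 in each library, most in VC. With the main settings, VC over WT was called for 3.21% of the 8376 genes past the minimum and FLOX over WT for 2.05%. VC over FLOX was called for 2.04% and VC over both for 1.44%. Shares of all genes under the other settings are not given here, so the counts above describe the 9 genes only. Median-of-ratios size factors differed from total UMIs by -0.06 in VC, -0.02 in FLOX and 0.08 in WT on the log2 scale. The share of cells with both sets was 11.5% in VC cells with 0 Cxcl9 UMIs. It was 4.15% in VC, 3.33% in FLOX and 3.77% in WT at 1000 UMIs, 18.7%, 20.1% and 21.6% at 4000 UMIs, 39.8%, 35.0% and 44.1% without thinning, and 0.888%, 0.569% and 0.351% without Efnb2 and Sox17; these shares grow with depth by construction. Gja5 rests on 50, 87 and 2 UMIs and Bmx on 71, 130 and 24 in VC, FLOX and WT.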
